A study of Mus musculus with 8 samples.

Results

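The transcripts of 10 chromatin corepressors described as partners of Blimp1, or as relatives of such partners, were followed in mouse follicular regulatory T (TFR) cells with and without an intact Blimp1 gene. The genes were chosen by name: the histone deacetylases Hdac1, Hdac2 and Hdac3, the histone methyltransferases Ehmt2 and Ezh2, the arginine methyltransferase Prmt5, the histone demethylase Kdm1a, and the Groucho-type corepressors Tle1, Tle3 and Tle4. All 10 had a row among the 24421 genes of the deposited table, and all 10 were among the 12363 genes with enough reads to be tested. TFR cells sorted from spleen by CXCR5, PD1 and a YFP reporter of Foxp3 were compared in 2 genotypes. The 4 Blimp1-flox libraries came from mice carrying a floxed Blimp1 gene and Foxp3-cre, and the 4 WT libraries from mice labelled wild type. Both groups had been given 2 oral challenges of peanut plus cholera toxin, and spleens were taken 36 days later. Foxp3-cre acts in every cell that expresses Foxp3, so the deletion is not limited to TFR cells. The labels state neither the number of floxed alleles, nor the Cre status of the WT mice, nor whether each library is a separate mouse, so p-values measure the spread between these libraries.

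Blimp1, encoded by Prdm1, is a zinc finger transcriptional repressor that has no known enzymatic activity of its own and acts through the proteins it recruits. Histone deacetylases remove activating acetyl groups, G9a (Ehmt2) adds the repressive methyl marks of histone H3 lysine 9, LSD1 (Kdm1a) removes the activating methyl marks of lysine 4, and PRMT5 methylates histone arginines symmetrically. EZH2 is the catalytic subunit of Polycomb repressive complex 2, which methylates histone H3 lysine 27, and TLE proteins are scaffolds that link DNA-bound repressors to deacetylases. In T cells and plasma cells Blimp1 is known for restraining Bcl6 and other genes of the alternative fate, and in regulatory T cells for an effector state with IL-10 production.

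The libraries held 16425538 to 27595939 counts. Prdm1 had 13.4, 7.53, 9.60 and 16.6 CPM (read counts relative to library size, scaled by TMM) in Blimp1-flox libraries, against 39.1, 31.8, 65.1 and 71.0 CPM in WT libraries, with no overlap. Its log2 fold change, Blimp1-flox over WT, was -2.14 ± 0.31 (SE; adjusted p = 0.0203 in edgeR). All 11 T cell and TFR marker genes were present in every library, with sums of 6771 to 7894 CPM in Blimp1-flox and 6741 to 8098 CPM in WT libraries. Of these 11 genes Il2ra, the gene of the IL-2 receptor alpha chain, fell, with 39.0 ± 13.2 CPM in Blimp1-flox and 102.5 ± 20.0 CPM in WT libraries (SD, n = 4 each; edgeR adjusted p = 0.0311). Foxp3 had 65.9 ± 8.14 CPM in Blimp1-flox and 87.0 ± 13.4 CPM in WT libraries (SD, n = 4 each) and did not pass (edgeR adjusted p = 0.176). The 10 B cell markers summed to 205 to 275 CPM in Blimp1-flox and 232 to 797 CPM in WT libraries, the highest in WT 4 (exact two-sided permutation p = 0.143 on the log2 sum). Of them 9 had a negative log2 fold change, and 6 did not overlap between the groups, where 8.47% of all tested genes did not. None was called (0.501% of all tested genes), and Fcer2a was at 0 in 1 library. The 13 pancreas markers summed to 51.8 to 96.8 CPM in Blimp1-flox and 33.2 to 67.4 CPM in WT libraries (exact two-sided permutation p = 0.0571), most of it Cela1, with Amy2a5 at 0 throughout. Cpa1, Cpb1, Cela2a, Cela3b, Clps, Pnlip and Pnliprp1 were at 0 in 3 libraries each. The SEs of their log2 fold changes ran from 1.31 (Cela3b) to 1.69 (Cela2a). Try4 was at 0 in 2 libraries and Ctrb1 in 1. All 12 tested pancreas markers had a positive log2 fold change (median 0.78). Of them 2 (Cela1 and Prss2) did not overlap between the groups (8.47% of all tested genes), and none was called (0.501% of all). Plasma cell markers summed to 271 to 372 CPM in Blimp1-flox and 279 to 352 CPM in WT libraries, and myeloid markers to 262 to 358 CPM in Blimp1-flox and 241 to 326 CPM in WT libraries. Most of these sums was Xbp1 and Cybb. Of 4 tested plasma cell markers 2 had a positive and 2 (Xbp1 and Irf4) a negative log2 fold change. Called was 1 of these 4 (0.501% of all tested genes). This marker, Sdc1, rose, with 5.43 ± 1.60 CPM in Blimp1-flox and 1.47 ± 0.546 CPM in WT libraries (SD, n = 4 each; edgeR adjusted p = 0.0334). Of 8 tested myeloid markers 7 had a positive log2 fold change, 1 (Cd68) did not overlap (8.47% of all tested genes), and none was called (0.501%). The part of other cells in the corepressor values was not tested. CD8 and NK markers summed to 49.4 to 54.1 CPM in Blimp1-flox and 40.7 to 50.5 CPM in WT libraries (exact permutation p = 0.0571). Of 3 tested CD8 and NK markers 2 were positive and 1 (Eomes) negative. Klrb1c did not overlap (8.47% of all tested genes), and none was called (0.501%). Erythroid markers summed to 5.03 to 13.9 CPM in Blimp1-flox and 12.8 to 28.2 CPM in WT libraries (exact permutation p = 0.0857). The 2 tested erythroid markers were negative and not called. Tnfrsf17 was at 0 in 4 libraries, Clec9a and Ncr1 in 5, and 4 haemoglobin genes in all 8.

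For none of the 10 corepressor transcripts did the difference between Blimp1-flox and WT cells pass the test against the spread of the libraries. The quasi-likelihood test of edgeR called 0 of the 10 at an adjusted p under 0.05, where it called 62 of 12363 genes (0.501%) overall. At an unadjusted p under 0.05 the count was likewise 0 of the 10, against 16.2% of all tested genes. The log2 fold changes, Blimp1-flox over WT, ran from -0.46 to 0.19, with 4 positive, 6 negative and a median of -0.0040, beside a median of 0.0012 over all genes. Their median size without regard to sign was 0.097, and that of all genes was 0.165. In bulk RNA a smaller share of expressing cells and less RNA per cell cannot be told apart.

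A p above the threshold does not show equal levels, so the 95% intervals of the fold changes were compared with fixed sizes. For 2 of the 10 genes (Hdac2 and Kdm1a) the whole interval lay within a 1.2-fold change in either direction, as it did for 7.6% of all tested genes. For 8 of the 10 it lay within 1.5-fold (59.5% of all genes, which were not matched for level). Tle4 missed that limit by little, with an interval of 0.666 to 1.09 as a fold. Tle1 had the widest interval, 0.469 to 1.13 as a fold, and was the 1 gene that could still differ by 2-fold.

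**Figure D1:**
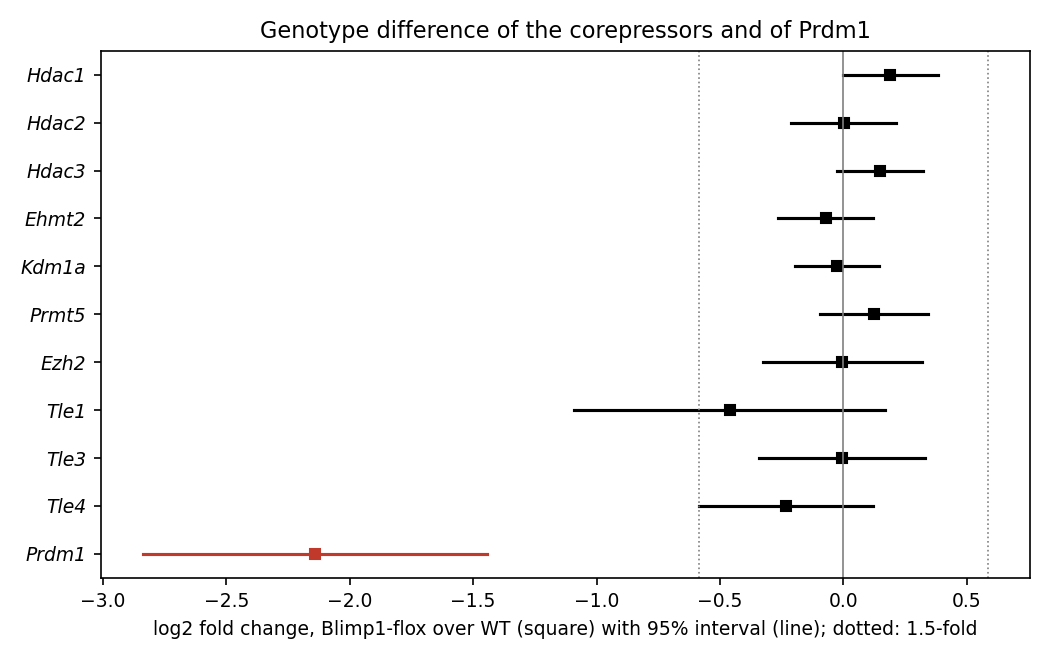
Log2 fold change of each corepressor and of Prdm1, Blimp1-flox over WT (squares), with the 95% interval (lines) and dotted lines at 1.5-fold. The intervals of all 10 corepressors include 0, while that of Prdm1 runs from -2.84 to -1.44.

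Hdac1 encodes a class I deacetylase found in the NuRD, Sin3 and CoREST complexes, and lies on chromosome 4 from 129516104 to 129542646 on the minus strand (mm10, as are all gene positions here). It had 268, 218, 252 and 258 CPM in Blimp1-flox libraries, against 207, 227, 213 and 224 CPM in WT libraries. In Blimp1-flox 3 of the 4 values lay above all WT values, and that of library 2 lay inside the WT range. The log2 fold change was 0.19 ± 0.09 (SE), with a 95% interval from -0.0013 to 0.38, which did not pass (edgeR adjusted p = 0.311). Without Blimp1-flox 2 it was 0.25 (unadjusted p = 0.0156 and adjusted p = 0.193 in edgeR), and without Blimp1-flox 1 it was 0.15 (unadjusted p = 0.116 and adjusted p = 0.523), the highest and lowest values with 1 library left out.

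Hdac2, the close paralog of Hdac1 in the same complexes, lies on chromosome 10 from 36974544 to 37001888. It had 116, 117, 119.6 and 126 CPM in Blimp1-flox libraries, against 101, 126, 119 and 133 CPM in WT libraries. The Blimp1-flox libraries lay inside the WT range, and the log2 fold change was 0.0012 ± 0.098 (SE), with a 95% interval of the fold from 0.864 to 1.16 (edgeR adjusted p = 0.996). The 2 deacetylases can often stand in for each other, so their ratio per length was compared within each library. It was 2.12 ± 0.185 in Blimp1-flox and 1.87 ± 0.162 in WT libraries (SD, n = 4 each; exact two-sided permutation p = 0.0857 on the log2 ratio, 0.429 after adjustment over 6 ratios).

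Hdac3, the deacetylase of the NCoR and SMRT complex, lies on chromosome 18 from 37936971 to 37954988. It had 196, 176, 191 and 178 CPM in Blimp1-flox libraries, against 162, 168, 164 and 175 CPM in WT libraries. Every Blimp1-flox library was above every WT library, by a narrow margin between Blimp1-flox 2 and WT 4. It was the 1 member of 10 without overlap, where 8.47% of all tested genes had none. The log2 fold change was 0.15 ± 0.08 (SE; edgeR adjusted p = 0.386), and on upper-quartile scaling, library totals or levels per length the groups overlapped. The ratio of Hdac1 to Hdac3 per length was 1.37 ± 0.0885 in Blimp1-flox and 1.33 ± 0.0363 in WT libraries (SD, n = 4 each; exact two-sided permutation p = 0.486).

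Kdm1a had the lowest estimated spread between libraries of the 10 transcripts. This demethylase gene, on chromosome 4 from 136550533 to 136602723, had 165, 164, 159 and 160.4 CPM in Blimp1-flox libraries, against 159, 159, 177 and 164 CPM in WT libraries. The groups overlapped, with WT 3 highest, and the fold was 0.983 with a 95% interval from 0.873 to 1.11 (edgeR adjusted p = 0.906). Its biological coefficient of variation, the relative spread between libraries that edgeR estimates beyond counting error, was 0.0915. Of the 500 tested genes nearest in level, 1.80% had a lower one.

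Ehmt2, on chromosome 17 from 34898492 to 34914050, had 117, 129, 114 and 115 CPM in Blimp1-flox libraries, against 137, 117, 117 and 128 CPM in WT libraries. Both groups spread over a similar range, with WT 1 highest, and the fold was 0.952 (95% interval 0.833 to 1.09; edgeR adjusted p = 0.729). Its partner gene Ehmt1, which encodes GLP, the partner of G9a, had a log2 fold change of 0.03. The ratio of Ehmt2 to Ehmt1 per length was 1.83 ± 0.183 in Blimp1-flox and 2.00 ± 0.42 in WT libraries (SD, n = 4 each; exact two-sided permutation p = 0.6).

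Prmt5, on chromosome 14 from 54507182 to 54517470, had 77.9, 77.5, 94.6 and 79.4 CPM in Blimp1-flox libraries, against 81.6, 72.8, 68.7 and 79.4 CPM in WT libraries. Blimp1-flox 3 stood above the 7 other libraries, which overlapped. The log2 fold change was 0.12 ± 0.10 (SE; edgeR adjusted p = 0.570) and 0.05 without Blimp1-flox 3. Its obligate partner in the methylosome, Wdr77, had a log2 fold change of 0.20 and the substrate adaptor Clns1a 0.19, and neither passed (edgeR adjusted p = 0.430 and 0.311). The other adaptors had -0.17 (Riok1) and 0.87 (Coprs), which did not pass either (edgeR adjusted p = 0.522 and 0.236).

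Ezh2 varied more between libraries than most genes of its level. This gene, on chromosome 6 from 47530274 to 47595030, had 90.8, 103, 145 and 97.6 CPM in Blimp1-flox libraries, against 94.2, 116, 99.2 and 128 CPM in WT libraries. Blimp1-flox 3 was highest and WT 4 second, and the lowest library was Blimp1-flox 1. The fold was 0.998 with a 95% interval from 0.799 to 1.25 (edgeR adjusted p = 0.993). Its biological coefficient of variation was 0.152, and 92.8% of the 500 genes nearest in level had a lower one. The ratio of Ezh2 to its paralog Ezh1, the Polycomb methyltransferase of resting cells, was 1.28 ± 0.258 in Blimp1-flox and 1.12 ± 0.141 in WT libraries per length (SD, n = 4 each; exact two-sided permutation p = 0.314).

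Ezh2 is known to follow cell division, so 20 proliferation genes were summed beside it. The sums were 1987, 2096, 2780 and 2284 CPM in Blimp1-flox libraries, against 1949, 1878, 2042 and 2200 CPM in WT libraries (exact two-sided permutation p = 0.171 on the log2 sum). The library with the highest sum, Blimp1-flox 3, was also the highest for Ezh2 and Prmt5. Log2 fold changes were positive for 18 of the 20 genes, and their median was 0.35. At an unadjusted p under 0.05 there were 9 of the 20 (16.2% of all tested genes), and 2 had no overlap (8.47% of all). Called was 1 of the 20 (0.501% of all), the mitotic cyclin gene Ccnb1, with 41.0 ± 9.42 CPM in Blimp1-flox and 20.7 ± 4.32 CPM in WT libraries (SD, n = 4 each; edgeR adjusted p = 0.0360). A proliferation score, the mean log2 CPM of the 20 genes scaled over the libraries, then entered the edgeR model as a covariate. Unlike the sum, it weighs each gene alike. Since 18 of the 20 genes were positive, the score shifts with genotype, and the fit cannot cleanly separate the score from genotype. With this score Ezh2 had a log2 fold change of -0.34 ± 0.14 (SE; adjusted p = 0.234) and Prmt5 of 0.0019 ± 0.13 (SE). Without Blimp1-flox 3 that of Ezh2 was -0.17 (adjusted p = 0.506). The part of dividing cells in these values was not tested.

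Of Tle1, Tle3 and Tle4, Tle3 was the most abundant and Tle1 had few reads. Tle3, on chromosome 9 from 61372366 to 61418497, had 197, 228, 202 and 206 CPM in Blimp1-flox libraries, against 247, 223, 230.2 and 136 CPM in WT libraries. WT 4 was the lowest of all 8 libraries and the 3 other WT libraries were among the 4 highest. The fold was 0.997 with a 95% interval from 0.790 to 1.26 (edgeR adjusted p = 0.990). Without WT 4 the log2 fold change was -0.16 ± 0.09 (SE; adjusted p = 0.465).

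Tle4, on chromosome 19 from 14448072 to 14598183, had 73.5, 103, 69.5 and 84.9 CPM in Blimp1-flox libraries, against 98.4, 120.2, 100.2 and 69.7 CPM in WT libraries. As for Tle3, WT 4 was the lowest WT library, and the 3 others included the highest value. The log2 fold change was -0.23 ± 0.16 (SE; edgeR adjusted p = 0.504). Without WT 4 it was -0.36 ± 0.14 (SE), with an unadjusted p of 0.0202 and an adjusted p of 0.291 in edgeR. It was also -0.36 without Blimp1-flox 2, the highest library of its group (unadjusted p = 0.0478 and adjusted p = 0.278 in edgeR). It was -0.11 without WT 2 and -0.16 without Blimp1-flox 3 (unadjusted p = 0.500 and 0.385, adjusted p = 0.832 and 0.688 in edgeR), so single libraries moved it both ways. The ratio of Tle3 to Tle4 per length was 2.40 ± 0.278 in Blimp1-flox and 2.02 ± 0.287 in WT libraries (SD, n = 4 each; exact two-sided permutation p = 0.143).

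WT 4 was also the library with the most B cell transcripts, 797 CPM of the 10 markers where the other WT libraries had 232 to 349 CPM. A B cell score, the mean log2 CPM of the 10 markers scaled over the libraries, was entered in the edgeR model. Of these markers 6 were lower in all Blimp1-flox libraries, where 8.47% of all tested genes had no overlap in either direction. The score thus shifts with genotype, and the fit cannot cleanly separate the score from genotype. Without the score the SEs of Tle3 and Tle4 were 0.15 and 0.16. With it Tle3 and Tle4 had log2 fold changes of -0.49 ± 0.20 and -0.57 ± 0.24 (SE; unadjusted p = 0.0292 and 0.0365 and adjusted p = 0.996 for both in edgeR). In that fit 0 genes of the whole table were called by edgeR, with 551 at an unadjusted p under 0.05. The part of B cell RNA in the Tle3 and Tle4 values was not tested.

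Tle1, on chromosome 4 from 72109945 to 72200893, had 54, 69, 55 and 93 reads in Blimp1-flox libraries, against 121, 76, 72 and 141 reads in WT libraries. These are 3.28, 2.87, 1.98 and 3.96 CPM in Blimp1-flox and 4.88, 3.28, 3.16 and 5.26 CPM in WT libraries. The 2 highest values were WT and the 2 groups overlapped through the other WT libraries. The log2 fold change was -0.46 ± 0.29 (SE; edgeR adjusted p = 0.456), the furthest from 0 of the 10 genes. It ran from -0.62 without Blimp1-flox 4 to -0.30 without Blimp1-flox 3, and was -0.12 in limma-voom. Its biological coefficient of variation, 0.299, was the highest of the 10.

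**Figure D2:**
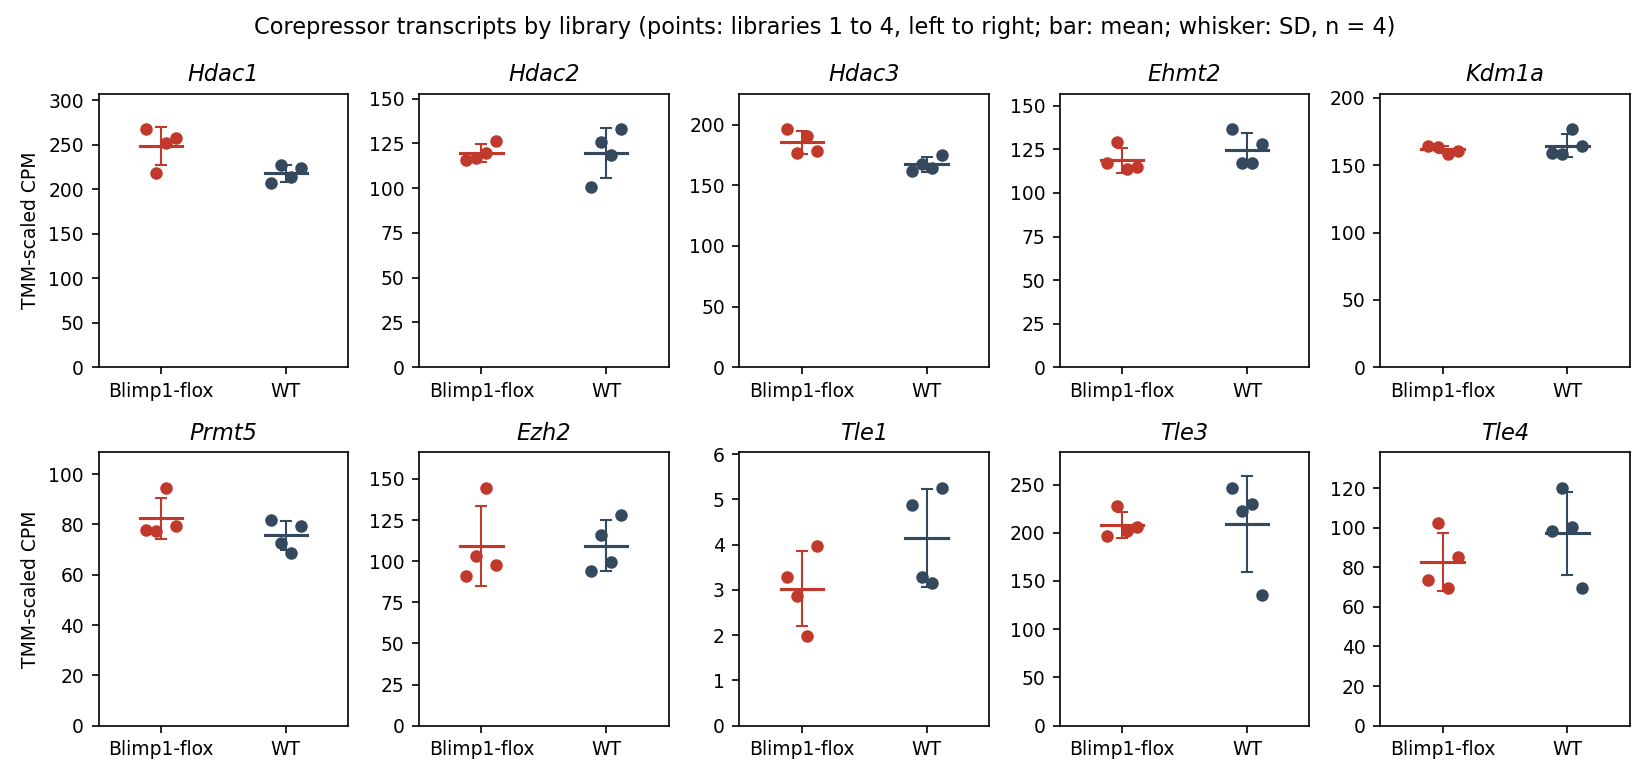
TMM-scaled CPM of the 10 corepressor genes in each library, Blimp1-flox left and WT right, with the mean (bar) and SD (whisker, n = 4). On this scale only Hdac3 has no overlap between the groups, which is lost on upper-quartile scaling, library totals or levels per length, and single libraries stand apart for Prmt5 and Ezh2 (Blimp1-flox 3) and for Tle3 (WT 4).

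**Figure D3:**
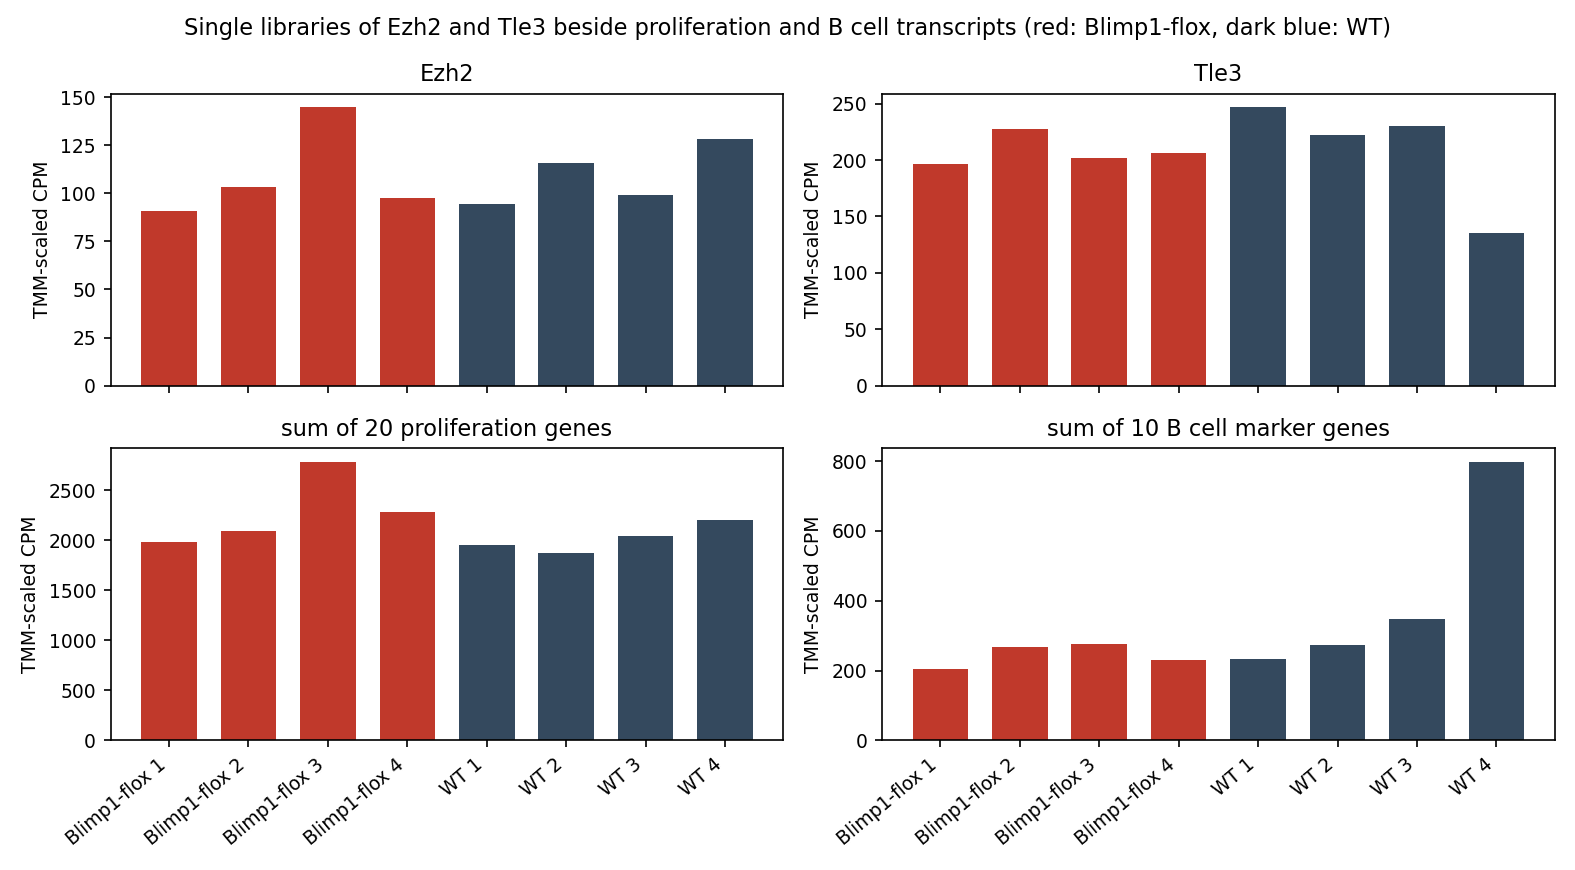
TMM-scaled CPM of Ezh2 and Tle3 in each library (top) and the summed CPM of 20 proliferation genes and 10 B cell markers in the same libraries (bottom). Blimp1-flox 3 is highest for Ezh2 (145 CPM) and for proliferation genes (2780 CPM), and WT 4 is lowest for Tle3 (136 CPM) and highest for B cell markers (797 CPM).

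Promoter sequences from RefSeq (GRCm38.p6, 300 bases around a gene's start) matched 8 of the 10 genes, with 10 windows: Hdac2, Ehmt2, Kdm1a, Prmt5, Ezh2, Tle1, Tle3 and Tle4. They were searched on both strands for the Blimp1 core AGNGAAAG, since Blimp1 was the factor targeted, and for the E2F core TTTNNCGC, since Ezh2 was compared with proliferation genes. The Blimp1 letters were found in the window of 1 of the 8 genes, Tle3, and in 8.63% of all 32851 windows. The E2F letters were found in that of Ezh2 alone among the 8, and in 5.17% of all windows. Both windows are shown 5′ to 3′ on the gene's own strand, with the matched letters in capitals. The match begins at base -187 from the start of Tle3 (window chr9:61372116-61372415, plus strand) and begins at base 4 after the start of Ezh2 (window chr6:47594981-47595280, minus strand). A match of letters is a description of the sequence, and binding was not measured.
Tle3: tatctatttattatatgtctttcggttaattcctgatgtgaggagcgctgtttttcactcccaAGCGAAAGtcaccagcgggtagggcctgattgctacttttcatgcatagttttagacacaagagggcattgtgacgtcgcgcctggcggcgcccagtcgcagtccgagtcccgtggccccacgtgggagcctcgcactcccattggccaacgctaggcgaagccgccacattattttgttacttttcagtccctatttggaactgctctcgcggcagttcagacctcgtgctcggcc
Ezh2: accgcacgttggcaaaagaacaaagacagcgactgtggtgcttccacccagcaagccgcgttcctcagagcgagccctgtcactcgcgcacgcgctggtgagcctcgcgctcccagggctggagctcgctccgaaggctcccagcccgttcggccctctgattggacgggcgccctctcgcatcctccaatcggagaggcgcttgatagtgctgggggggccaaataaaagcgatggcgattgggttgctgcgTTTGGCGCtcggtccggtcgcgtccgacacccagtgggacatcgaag

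To set the genes beside each other, counts were divided by the summed exon length and scaled to the same total in each library (TPM). Hdac1 was highest with 270.3 ± 22.6 TPM, followed by Hdac3 with 201 ± 12.1 TPM and Hdac2 with 136 ± 13.7 TPM (SD over all 8 libraries). The ranges of these 3 did not overlap, so the order Hdac1, Hdac3, Hdac2 held in every library. Kdm1a had 124 ± 6.30 TPM, Ezh2 93.8 ± 17.8 TPM and Tle3 91.6 ± 15.2 TPM. Hdac2 was above Kdm1a in 7 of 8 libraries, and Ezh2 was above Tle3 in 3 of 8, so the order of Ezh2 and Tle3 was not resolved.

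Ehmt2 and Prmt5 had nearly the same mean level, 68.3 ± 4.98 and 68.3 ± 6.36 TPM, with Ehmt2 above in 5 of 8 libraries. Tle4 followed with 42.2 ± 9.59 TPM, below Prmt5 in every library. Tle1 was last with 0.672 ± 0.199 TPM. That value rests on annotated exons that sum to 12173 bases. Hdac1 lay at the 94.3 percentile of the tested genes by TPM and Tle1 at the 4.68 percentile. Prdm1 itself had 5.08 ± 1.65 TPM in Blimp1-flox and 23.0 ± 8.57 TPM in WT libraries (SD, n = 4 each). The 9 corepressors other than Tle1 were therefore above Prdm1 in both genotypes, the lowest of them being Tle4 with 32.5 TPM in Blimp1-flox 1.

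**Figure D4:**
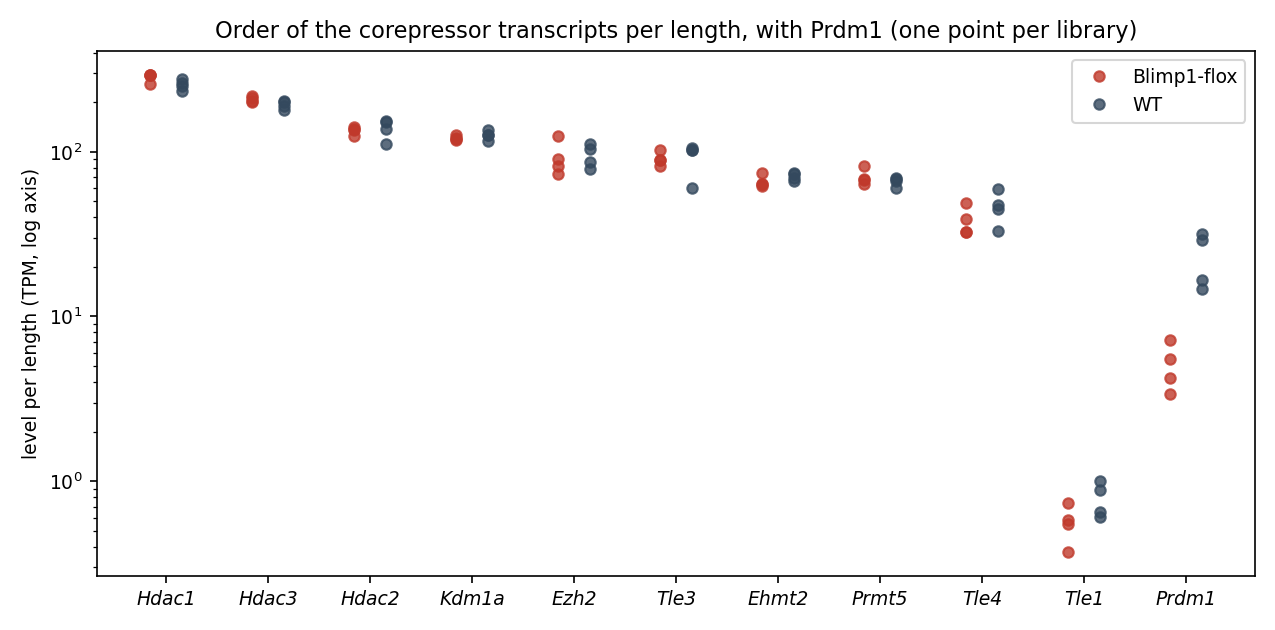
Level per length (TPM, log axis) of the corepressor genes in falling order and of Prdm1, with 1 point per library, Blimp1-flox left of WT. The 3 deacetylases lead the order, Tle1 lies far below the others in every library, and only Prdm1 shows separate groups.

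Other genes of the complexes in which these enzymes work, and of related gene families outside those complexes, were counted together from fixed lists. Of 109 such genes 107 were tested, and none was called in either direction. Log2 fold changes were positive for 35 and negative for 72 of them (median -0.077), where all tested genes had 6198 positive and 6165 negative ones. At an unadjusted p under 0.05 there were 22 of 107 (20.6%, against 16.2% of all genes), and 8 had no overlap between the groups (7.48%, against 8.47%).

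Most log2 fold changes were positive in the arginine methyltransferase list and negative in the Polycomb list, with 0 called in either. Of 10 tested genes of the PRMT5 cofactors and other PRMTs 8 were positive, and the median was 0.20. Prmt1, the main asymmetric arginine methyltransferase, had 145 ± 18.3 CPM in Blimp1-flox and 112 ± 8.19 CPM in WT libraries (SD, n = 4 each) without overlap, and did not pass (log2 fold change 0.37, edgeR adjusted p = 0.137). Of 21 Polycomb genes 18 were negative, and the median was -0.12. Phf1, a PRC2 accessory subunit that reads methylated lysine 36, had 129 ± 9.16 CPM in Blimp1-flox and 152 ± 9.88 CPM in WT libraries (SD, n = 4 each; log2 fold change -0.24, edgeR adjusted p = 0.227).

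The deacetylase complexes gave no call either. In the NuRD list 6 of 12 log2 fold changes were positive (median 0.04), and the remodeller gene Chd3 had the lowest p with -0.41 (edgeR adjusted p = 0.204). Rbbp4 and Rbbp7, counted in this list alone, went the other way with 0.29 and 0.22 (edgeR adjusted p = 0.207 and 0.222). Rbbp7 was the 1 gene of this list without overlap (8.47% of all tested genes). In the Sin3 list 3 of 12 were positive (median -0.11), with Arid4a, a subunit of that complex, at -0.34 (edgeR adjusted p = 0.196). In the CoREST list, whose complex holds LSD1, 1 of 9 was positive (median -0.13), with Phf21a, a reader of unmethylated lysine 4, at -0.34 (edgeR adjusted p = 0.215). All 5 genes of the NCoR and SMRT list, whose complex holds HDAC3, were negative (median -0.095), with Gps2 at -0.33 (edgeR adjusted p = 0.239).

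Among the other deacetylases and sirtuins 6 of 13 were positive (median -0.010). The class IIa deacetylase gene Hdac9 had 4.94 ± 1.94 CPM in Blimp1-flox and 8.35 ± 1.70 CPM in WT libraries (SD, n = 4 each; log2 fold change -0.75, edgeR adjusted p = 0.210). In the list of lysine 9 methyltransferases and HP1 proteins 5 of 11 were positive (median -0.12), with the SETDB1 cofactor gene Atf7ip at -0.33 (edgeR adjusted p = 0.273). Of the demethylases of the same marks 2 of 11 were positive (median -0.15), with Jmjd1c at -0.45 (edgeR adjusted p = 0.120). Of the 3 other Groucho genes tested 1 was positive, and Tle2 had 1.63 ± 0.549 CPM in Blimp1-flox and 2.24 ± 0.402 CPM in WT libraries (SD, n = 4 each; edgeR adjusted p = 0.519).

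**Figure D5:**
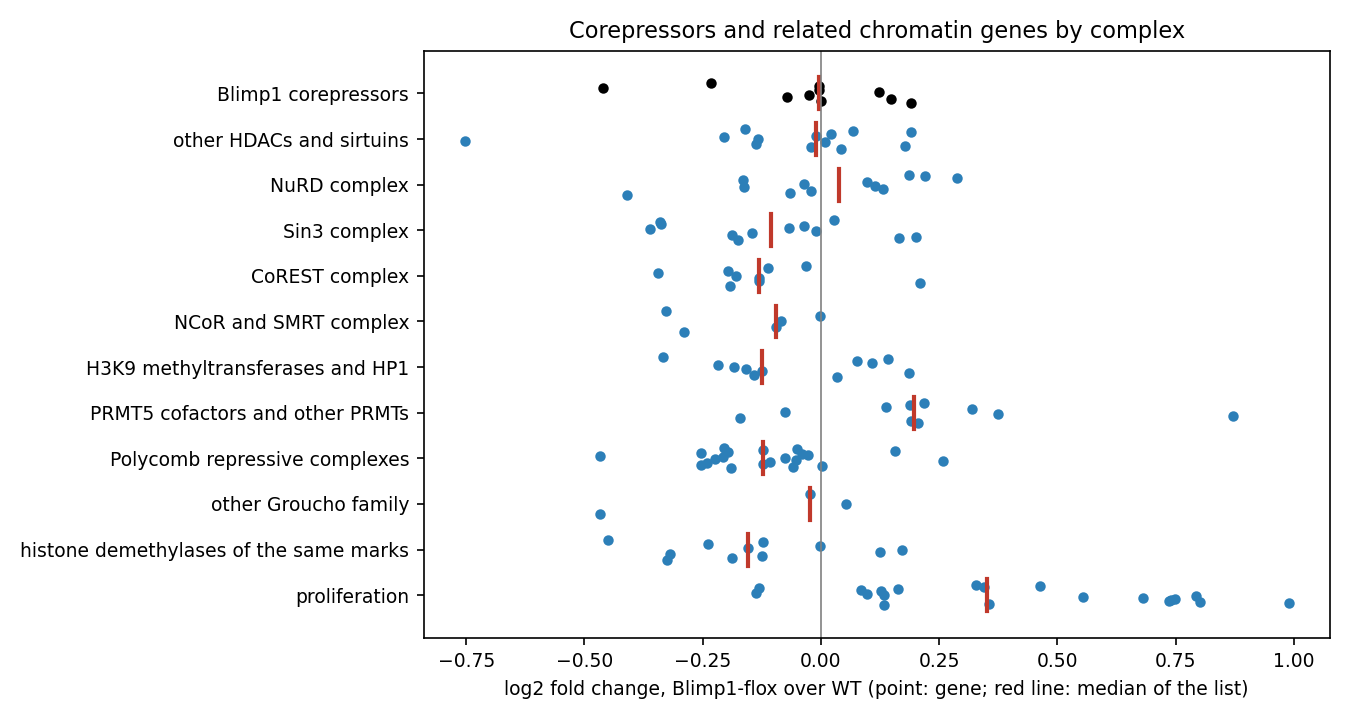
Log2 fold changes, Blimp1-flox over WT, of the 10 corepressors (black) and of the tested genes of related complexes, related gene families and proliferation (blue), with the median of each list (red line). The corepressor median is -0.0040, the arginine methyltransferase median 0.20 and the proliferation median 0.35, and Ccnb1 is the 1 gene shown that was called.

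For each corepressor the 2 tested genes with the most similar log2 CPM over the 8 libraries were taken, by Pearson r and among all tested genes with a symbol of their own. All r values are descriptions over 8 libraries that share their depth and scaling. Picking the highest r among so many genes over so few libraries yields high values by itself. The r values were not tested against that, and the genes named are not shown to be related. Closest to Hdac1 were Pex2 (r = 0.99) and Klrb1f (0.97), to Hdac2 Rwdd4a and Zfp27 (0.95 and 0.94), and to Hdac3 Rab26 and Slc25a29 (0.98 and 0.96). Closest to Ehmt2 were Sntb2 and Nat9 (0.93 and 0.92), to Kdm1a Usp36 and Mmp14 (0.89 and 0.88), and to Prmt5 the transcription factor gene Lef1 and Dera (0.94 and 0.93). Ezh2 was closest to Zwilch, a kinetochore gene, and Tmem91 (both 0.98). Tle1 was closest to Cdk5rap1 and Gdf11 (both 0.95), Tle3 to Josd1 and Dio2 (0.995 and 0.986), and Tle4 to Ap2a2 and the Bcl6 corepressor gene Bcor (0.98 and 0.96). Kdm1a, with the lowest spread between libraries, had the lowest of these r values, and Tle3, whose WT 4 value stands apart, the highest.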

How the data were processed

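The authors deposited 1 table of raw read counts per gene for 8 libraries, with gene positions and summed exon lengths. The submitters' processing notes name STAR 2.5.2b, the build mm10, and featureCounts from Subread 1.5.1. The gene annotation and the strand setting are not given in the sources used here. No exon of the 10 corepressor genes overlapped an exon of another gene in the table. The deposited counts of each library summed to 16425538 to 27595939.

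Genes were kept with filterByExpr (12363 genes) and scaled by TMM. Genotype alone was tested by quasi-likelihood in edgeR 4.0.16 (R 4.3.3, robust), adjusted by Benjamini-Hochberg over all tested genes. Standard errors come from the F statistic. CPM and TPM were computed here. Single values were compared with exact permutation tests over 70 assignments of the libraries, which give no p below 0.0286. The genes, the lists of related genes and the alternatives were chosen with earlier results of these data known. The naming rule took the 10 corepressors, Prdm1, the called member or the 1 with the lowest p in each list, and the 2 most similar genes for each corepressor. Genes outside it (Wdr77, Clns1a, Riok1, Coprs, Ehmt1, Ezh1 and single markers) were named as partners, paralogs or markers after their values were seen. Rbbp4 and Rbbp7 were likewise named after their values were seen, for a p close to that of Chd3. Alternatives used other scalings, DESeq2 1.42.0, limma 3.58.1 (voom), other filters, covariates, a replicate block and left-out libraries.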

Additional observations from a re-analysis of the deposited data

Results flagged for a closer look

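Prmt5 had 94.6 CPM in Blimp1-flox 3, far from the 77.5 to 79.4 CPM of the 3 other Blimp1-flox libraries. The gap was large against the range of the group by Dixon's criterion. Of the 20 sets of 4 values examined (10 genes in 2 groups) this was the 1 that met it, and chance gives about 1 in 20. Blimp1-flox 3 also held the highest sum of proliferation genes (2780 CPM), and the part of dividing cells in the Prmt5 value was not tested.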

How the results depend on the processing

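In none of 20 alternative fits, nor at an adjusted p under 0.1, was any of the 10 corepressor genes called. The lowest adjusted p over these fits was 0.116, for Hdac1 in limma-voom with quality weights. The count at an unadjusted p under 0.05, 0 in the main fit, did change. It was 1 (Hdac1) with RLE scaling, upper-quartile scaling, DESeq2 or limma-voom. It was 1 with the proliferation score (Ezh2) and without WT 4 (Tle4). It was 2 with the B cell score (Tle3 and Tle4) and without Blimp1-flox 2 (Hdac1 and Tle4). The other fits had 0, and across the 20 fits 551 to 2938 of all tested genes passed. Hdac1, Hdac3 and Prmt5 kept a positive and Ehmt2 and Tle1 a negative log2 fold change in all 20 fits. Hdac2, Kdm1a, Ezh2, Tle3 and Tle4 changed sign in at least 1 fit. Ezh2 had 0.0010 with RLE scaling, 0.0032 with upper-quartile scaling, 6.9e-04 in DESeq2 and 0.22 with the B cell score, and -0.17 to 0.083 with 1 library left out. Tle3 had 0.0050 with upper-quartile scaling, 0.0010 with library totals, 0.028 with the replicate block, 0.041 with the pancreas score and 0.25 with the proliferation score, and -0.16 to 0.085 with 1 library left out. Hdac2 had -0.017 with the pancreas score and -0.096 with the proliferation score, and -0.075 to 0.056 with 1 library left out. Kdm1a had 0.018 with the B cell score and -0.043 to 0.0078 with 1 library left out, and Tle4 had 0.088 with the proliferation score. The cause of these sign changes was not tested.

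The count of called genes in the whole table, 62, depended more on the settings. It was 453 in DESeq2, 494 in limma-voom, 590 with the pancreas score, 119 with the proliferation score, 0 with the B cell score (551 at an unadjusted p under 0.05), 157 without WT 4 and Blimp1-flox 3, and 182 at an adjusted p under 0.1. With 1 library left out it ran from 20 without Blimp1-flox 1 to 127 without WT 1, and leaving out WT 2, Blimp1-flox 4 or Blimp1-flox 3 gave 27, 23 and 94 in that order. With the replicate block it was 52. The replicate numbers were not taken as pairs, since the labels do not say that they mark a shared mouse, litter or day. Same-numbered libraries deviated from their group means with correlations of 0.10, 0.153, -0.102 and -0.108. Those of different numbers had -0.175 to 0.115, and with 4 libraries a group these values cannot decide pairing. Tle1 had the fewest reads of the 10 genes, 54 to 141 a library, and the part of depth in its wide interval was not tested.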
